A study of Mus musculus with 6 samples.

Results

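Glycolysis turns glucose into pyruvate and, by way of lactate dehydrogenase, into lactate, and many of its genes belong to the transcriptional response to low oxygen. The results below follow 37 such genes in 4T1 cells with and without ETV4 knockout. The genes were chosen by symbol: glucose transporters, the enzymes and regulators of glycolysis, the pyruvate and lactate branch, and target genes and regulators of hypoxia-inducible factor (HIF). All 37 symbols were found among the 31017 gene symbols of the deposited count table (Ero1l is the older symbol of Ero1a). They were divided by role into 22 genes of the route from glucose to lactate, 14 of them glycolytic enzymes, and 15 other genes of the HIF response.

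4T1 is a mouse mammary carcinoma line. All 6 samples were 4T1 cells nucleofected with Cas9 and guide RNAs, embedded in 3D collagen I gels, released with collagenase and sequenced as poly(A) RNA. The 3 control samples received control guides (library code sgCTRL), and the 3 ETV4 KO samples carry the name of a knockout of Etv4, which encodes an ETS-family transcription factor (library code c39). What c39 stands for, such as a guide or a clone, is not stated in the sources used here, and neither is which of the named collagen concentrations (1.2 or 2.4 mg/ml) these gels had. No oxygen level is given, and no group was labelled as hypoxic. The labels do not say that replicates came from separate cultures, so the p-values measure only the spread between these samples.

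HIF is a pair of proteins, an oxygen-controlled alpha subunit such as HIF-1 alpha (Hif1a) and its partner ARNT. In the presence of oxygen, prolyl hydroxylases (Egln genes) mark the alpha subunit for destruction through the VHL protein, so much of HIF control acts on protein and not on Hif1a mRNA. When oxygen is short, HIF binds DNA at sites with the core RCGTG, written here as ACGTG or GCGTG. Its targets include glucose transporters, most glycolytic enzymes, lactate dehydrogenase A, a kinase that keeps pyruvate out of mitochondria, a carbonic anhydrase of the cell surface, and the hydroxylases themselves. Tumour cells often run glycolysis to lactate also when oxygen is present.

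The libraries held 22355015 to 29042569 counts, with 15515 to 15800 genes detected in each. Etv4 mRNA was 133.9 CPM ± 0.752 (SD, n = 3) in controls and 89.8 CPM ± 2.44 in ETV4 KO, a log2 fold change of -0.58 (edgeR adjusted p = 1.03e-14), so the transcript was lower but not lost. Relative to the other expressed genes in its 10 Mb of chromosome 11, whose median was -0.46, Etv4 had -0.11 (adjusted p = 0.00742). The count of a gene cut by Cas9 does not show whether its protein is made. CPM are counts scaled to library size after correction by the trimmed mean of M-values (TMM). All 10 epithelial markers were detected, with summed levels of 6394 to 6525 CPM in controls and 4914 to 5127 CPM in ETV4 KO. Of these markers 7 were lower and 2 higher, beside 36% and 35% of all genes tested. Relative to neighbouring genes 5 were lower and 2 higher, beside 34.2% and 30.6% of all genes. The median log2 fold change of the list was -0.42, and -0.09 relative to neighbouring genes. Summed fibroblast markers were at 9.96 to 11.7 CPM in controls and 13.0 to 14.6 in ETV4 KO (Lum, Dpt and Thy1 at 0 counts), macrophage markers at 10.1 to 10.7 and 10.3 to 12.1 (Adgre1, Lyz2, C1qa and C1qb at 0), adipocyte markers at 9.81 to 10.6 and 11.1 to 11.7, and lymphocyte markers at 1.19 to 1.66 and 0.727 to 0.943. The endothelial list summed to 41.7 to 43.2 CPM in controls and 73.0 to 75.1 CPM in ETV4 KO, nearly all of it Eng, with Emcn, Cldn5 and Erg at 0 counts in all libraries. The part of these markers in the results was not tested. Since RNA was taken in bulk, fewer cells of a type and less RNA per cell cannot be told apart.

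Of the 37 genes, 35 had enough counts to be tested. ETV4 KO libraries differed from controls at most expressed genes: 71.1% of the 12076 genes tested passed an adjusted p under 0.05 in edgeR's quasi-likelihood test, 35% higher and 36% lower. Of the 35 tested members, 18 rose, 10 fell and 7 did not pass, with a median log2 fold change of 0.20 beside -0.00 over all genes tested. Against a change of more than 1.5-fold (edgeR's glmTreat), 6.09% of all genes were higher and 7.86% lower; 4 members rose by more than that (Egln3, Pdk1, Ndrg1 and Pfkp) and 5 fell (Aldoc, Ldhb, Car12, Ddit4 and Car9). With the median of other expressed genes in the same 10 Mb of chromosome taken out, 2 of these rises passed (Egln3 and Pdk1) beside 4.48% of all genes, and 7 falls passed (the same 5, Pfkm and Angptl4) beside 6.69%. The libraries of the groups did not overlap for 72.7% of all genes. They did not overlap for 30 members, 18 with ETV4 KO above and 12 with ETV4 KO below.

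The glycolytic enzymes and the other HIF response genes both held members that rose and members that fell. Among the 14 glycolytic enzymes, 5 rose (Gpi1, Pfkp, Aldoa, Pgk1 and Pgam1), 3 fell (Hk2, Pfkm and Aldoc) and 6 did not pass, with a median of -0.01. Both glycolytic regulators and all 3 oxygen-sensing genes rose, and both carbonic anhydrases fell. The 15 HIF response genes outside the route to lactate held 9 that rose, 5 that fell and 1 that did not pass, with a median of 0.29. Summed over genes, the glycolytic enzymes were at 9518 CPM ± 68.6 (SD, n = 3) in controls and 9901 CPM ± 185 in ETV4 KO, a ratio of 1.04, and the other HIF response genes at 1138 CPM ± 13.1 and 1245 CPM ± 13.1, a ratio of 1.09. The ratio of the enzymes depends on the TMM scaling. As a share of raw counts the enzymes were at 0.9629%, 0.9699% and 0.9725% in controls. In ETV4 KO they were at 0.957%, 0.9864% and 0.9732%, so the groups overlapped. The 5 of 14 enzymes that rose are close to the 35% of all genes. With the level of neighbouring genes on the chromosome taken out, 10 of the 14 were higher, beside 30.6% of all genes, so that this count depends on the scale. On that scale the enzymes had a median of 0.16. The 15 other HIF response genes had a median of 0.13, with 8 higher and 5 lower. The order of the 2 medians thus also depends on the scale. No test of any list was made, and what follows describes the genes 1 by 1.

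**Figure D1:**
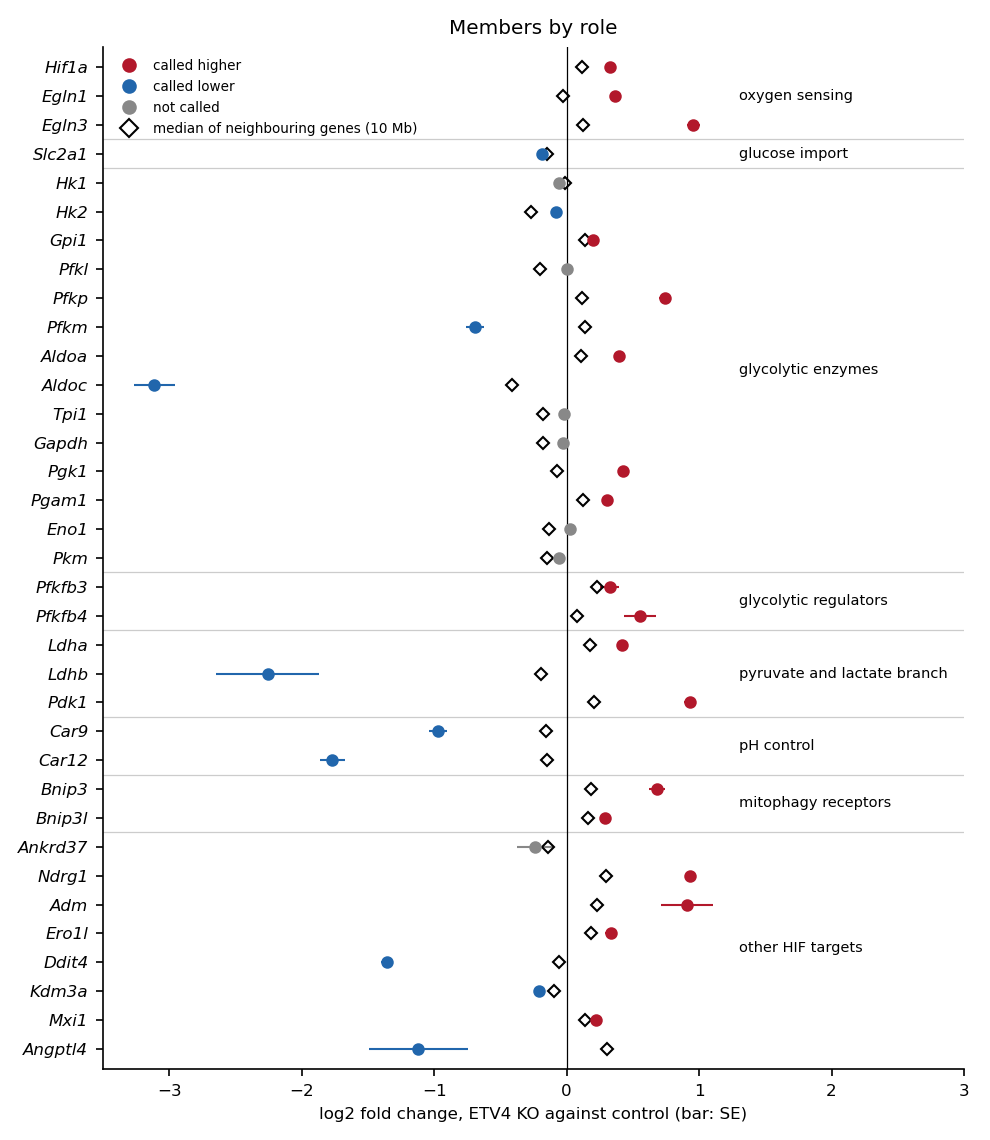
Log2 fold change (ETV4 KO against control, x axis) of the 35 tested genes ordered by role; points show the edgeR estimate, bars its SE, colours the call, and open diamonds the median of other expressed genes within the same 10 Mb of chromosome. The oxygen-sensing genes, both regulators, Ldha and Pdk1 lie to the right, Aldoc, Ldhb, both carbonic anhydrases and Ddit4 to the left, and Hk1, Pfkl, Tpi1, Gapdh, Eno1 and Pkm near 0.

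The DNA before the start sites was searched for the HIF core, since HIF response genes moved in both directions. RefSeq promoters (GRCm38.p6) were held for 33 of the 37 genes, 50 promoters in all, and the 250 bases before each start were read. At least 1 ACGTG or GCGTG on either strand stood in 39 of the 50 (78%), against 12679 of 32851 promoters of all genes (38.6%). These include promoters of genes with too few counts to test here. They were not matched to the members for expression or base composition. The share was 82.6% (19 of 23) for members that rose, 73.3% (11 of 15) for members that fell and 72.7% (8 of 11) for members that did not pass. The remaining promoter is that of Slc16a3, which was not tested. ACGTG alone stood in 60.9% (14 of 23), 40% (6 of 15) and 18.2% (2 of 11) of these, against 16.6% of all promoters. Some genes count more than once here, and some of their windows overlap. By gene, ACGTG stood in 11 of 16 that rose, 5 of 9 that fell and 2 of 7 that did not pass. Across all genes it stood in 4998 of 27025. ACGTG or GCGTG stood in 15 of 16, 8 of 9 and 6 of 7, against 11226 of 27025. The difference between these shares was not tested. A match is a description of the letters and not a binding site. The letters CCGGAA, which hold the core bound by ETS factors, stood on either strand in 12% of the members' promoters and in 12% of all.

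Below, 7 of these promoters are printed so that genes that rose (Egln3, Pdk1, Bnip3, Pgk1, Ldha) can be read beside genes that fell (Car9, Ddit4). They lie at chr12:54203875-54204124 on the minus strand (Egln3), chr2:71872974-71873223 on the plus strand (Pdk1), chr7:138909507-138909756 on the minus strand (Bnip3), chrX:106186850-106187099 on the plus strand (Pgk1), chr7:46845554-46845803 on the plus strand (Ldha), chr4:43506776-43507025 on the plus strand (Car9) and chr10:59951771-59952020 on the minus strand (Ddit4). Each reads 5′ to 3′ in the direction of the gene and ends at the base before the RefSeq start, and capitals mark ACGTG or GCGTG or their reverse complements CACGT and CACGC.
Egln3: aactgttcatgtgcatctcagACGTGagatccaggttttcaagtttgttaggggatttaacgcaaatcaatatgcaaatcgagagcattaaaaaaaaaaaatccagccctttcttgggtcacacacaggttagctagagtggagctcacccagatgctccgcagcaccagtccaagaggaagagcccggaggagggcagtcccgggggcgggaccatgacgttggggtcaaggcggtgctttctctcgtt
Pdk1: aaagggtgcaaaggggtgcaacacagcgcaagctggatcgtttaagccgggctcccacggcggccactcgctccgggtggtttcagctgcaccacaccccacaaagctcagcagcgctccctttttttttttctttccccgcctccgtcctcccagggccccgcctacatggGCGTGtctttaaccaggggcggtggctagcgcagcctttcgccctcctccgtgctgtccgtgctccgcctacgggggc
Bnip3: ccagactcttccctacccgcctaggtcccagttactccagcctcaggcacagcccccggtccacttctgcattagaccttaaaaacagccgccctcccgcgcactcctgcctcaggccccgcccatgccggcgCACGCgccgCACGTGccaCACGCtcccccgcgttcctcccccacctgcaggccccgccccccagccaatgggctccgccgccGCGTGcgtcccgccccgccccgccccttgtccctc
Pgk1: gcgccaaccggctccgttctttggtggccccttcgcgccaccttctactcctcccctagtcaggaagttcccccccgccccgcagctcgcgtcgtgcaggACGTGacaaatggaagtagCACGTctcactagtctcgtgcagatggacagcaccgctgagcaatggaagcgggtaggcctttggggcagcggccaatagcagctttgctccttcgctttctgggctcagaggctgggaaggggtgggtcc
Ldha: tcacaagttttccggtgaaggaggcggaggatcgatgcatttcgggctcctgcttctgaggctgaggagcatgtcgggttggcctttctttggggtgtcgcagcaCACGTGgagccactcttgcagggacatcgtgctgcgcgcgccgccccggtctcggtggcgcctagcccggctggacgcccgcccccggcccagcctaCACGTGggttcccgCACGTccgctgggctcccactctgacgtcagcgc
Car9: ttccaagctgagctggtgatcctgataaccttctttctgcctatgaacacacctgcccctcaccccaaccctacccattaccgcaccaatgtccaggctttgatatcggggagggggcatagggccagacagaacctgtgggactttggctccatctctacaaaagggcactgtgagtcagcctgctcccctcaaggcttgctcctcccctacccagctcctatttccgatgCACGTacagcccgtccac
Ddit4: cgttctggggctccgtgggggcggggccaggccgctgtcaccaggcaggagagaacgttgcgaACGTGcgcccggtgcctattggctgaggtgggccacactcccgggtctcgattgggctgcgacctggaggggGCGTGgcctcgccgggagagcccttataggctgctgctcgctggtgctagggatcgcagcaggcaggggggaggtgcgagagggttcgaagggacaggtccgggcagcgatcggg
RefSeq lists another promoter for Ldha, chr7:46846832-46847081, with 1 core and no CACGTG, and another for Pdk1, chr2:71874654-71874903, with 0 cores; the ones printed hold more. The printed Ldha promoter holds 3 marked stretches, 2 of which are the palindrome CACGTG, in which the core is read on both strands. Bnip3 holds 4 stretches, Pgk1 and Ddit4 2 each, and Egln3, Pdk1 and Car9 1 each. The single stretch of Car9 lies 13 bases before the start and that of Egln3 224 bases before it. Every printed promoter carried the core in this window, both of genes that rose and of genes that fell. Among those not printed, the promoters of Gpi1, which rose, and of Car12, which fell, held 0 cores.

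All 3 genes of the oxygen-sensing step were higher in ETV4 KO. Hif1a, the alpha subunit, measured 112.8, 108.4 and 112.7 CPM in the controls and 147.9, 131.1 and 139.3 CPM in ETV4 KO (log2 fold change 0.33 with SE 0.040, edgeR adjusted p = 1.97e-08). Every ETV4 KO library lay above every control, and relative to its neighbours on chromosome 12 Hif1a had 0.21. Egln1, the main prolyl hydroxylase, went from 112.7 CPM ± 3.74 (SD, n = 3) to 144.8 CPM ± 0.693, a log2 fold change of 0.36 (adjusted p = 2.50e-10). Egln3, a hydroxylase whose gene is itself induced by HIF in many cells, had the largest rise of the 35 tested genes. It measured 29.9, 30.8 and 30.4 CPM in the controls and 61.1, 57.7 and 58.1 CPM in ETV4 KO, a 1.94-fold difference (log2 fold change 0.96, SE 0.048, adjusted p = 4.67e-17). The ETV4 KO libraries stood far above the controls, with little spread within each group. Per kilobase of exon the share of Egln3 in the sum of Egln1 and Egln3 was 26.7% ± 0.664 in controls and 35.5% ± 0.806 in ETV4 KO (mean ± SD of 3 libraries, exact permutation p = 0.1).

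The main glucose transporter was lower in ETV4 KO. Slc2a1, the transporter GLUT1, measured 130.5, 132.0 and 133.5 CPM in the controls and 110.7, 120.4 and 116.7 CPM in ETV4 KO, and fell by 0.19 on the log2 scale (SE 0.037, edgeR adjusted p = 4.42e-05). The groups did not overlap, but the neighbouring genes were also lower: relative to the median of other expressed genes within its 10 Mb of chromosome 4, Slc2a1 had -0.04 (adjusted p = 0.390). Slc2a3, the transporter GLUT3, had 1 count in control replicate 1 and 0 in the other libraries, and was not tested. The lactate exporter Slc16a3 was counted 6, 2 and 6 times in the controls and 2, 4 and 2 times in ETV4 KO, too few to test. Slc16a1, another lactate transporter, and its chaperone Bsg had more reads and did not pass the test: Slc16a1 was at 212.5 CPM in controls and 204.6 CPM in ETV4 KO, and Bsg at 406.7 and 392.7.

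The hexokinases, which trap glucose in the cell by phosphorylation, were near level. Hk1 was at 258.9 CPM ± 6.40 in controls and 248.4 CPM ± 7.59 in ETV4 KO (mean ± SD of 3 libraries, log2 fold change -0.06 with SE 0.033, edgeR adjusted p = 0.1098). Hk2, a HIF target in many tumour cells, was at 117.1 CPM ± 1.26 and 110.6 CPM ± 3.88, a log2 fold change of -0.08 with an adjusted p of 0.0443. That call was the weakest among the 28: it was lost with DESeq2 (adjusted p = 0.0871), with RLE factors (0.0513) and when any single library other than ETV4 KO replicate 2 was left out, and the sign turned to 0.19 relative to the neighbouring genes. The share of Hk2 in hexokinase mRNA per kilobase was 39.3% ± 0.801 in controls and 38.9% ± 1.09 in ETV4 KO (exact permutation p = 0.7). Gpi1, which makes fructose 6-phosphate, rose from 309.1 CPM ± 3.71 to 355.4 CPM ± 15.6, a log2 fold change of 0.20 (adjusted p = 4.62e-06), with 0.06 (adjusted p = 0.105) relative to its neighbours on chromosome 7.

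At phosphofructokinase, the committed step of glycolysis, Pfkp and Pfkm moved in opposite directions, while the sum of the 3 isoenzymes per exon length was near level. Pfkp, the platelet-type isoenzyme (chromosome 13, 6579768 to 6648777, minus strand), measured 53.9, 49.0 and 49.1 CPM in the controls and 80.4, 86.1 and 87.5 CPM in ETV4 KO, a 1.67-fold rise (log2 fold change 0.74, SE 0.046, edgeR adjusted p = 7.30e-15). Pfkm, the muscle-type isoenzyme (chromosome 15, 98092589 to 98132451, plus strand), measured 24.5, 24.0 and 22.2 CPM and 15.3, 13.5 and 14.9 CPM (log2 fold change -0.69 with SE 0.067, adjusted p = 2.02e-10). In both genes the groups lay far apart. Pfkl, the liver-type isoenzyme and the most abundant of the 3 per kilobase, was at 398.1 CPM ± 11.9 and 399.6 CPM ± 16.6 (mean ± SD of 3 libraries, log2 fold change 0.01 with SE 0.034, adjusted p = 0.895), and 0.21 relative to its neighbours (adjusted p = 4.45e-06).

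Per kilobase of exon the 3 isoenzymes summed to 70.5 CPM per kb in controls and 70.6 in ETV4 KO. Pfkl made up 84.6% and 84.8% of that sum. With the longest coding transcript of each gene as length, Pfkl made up 83.9% in controls and 80.8% in ETV4 KO. The level sum is given for the exon length only. The share of Pfkm went from 10.0% ± 0.644 to 6.20% ± 0.588 and that of Pfkp from 5.37% ± 0.402 to 8.96% ± 0.394 (mean ± SD of 3 libraries), so that Pfkm stood above Pfkp in every control library and below it in every ETV4 KO library. This order depended on the gene length used: with the longest coding transcript of each gene, Pfkp was above Pfkm already in the controls (9.62% against 6.45%). The direction of both changes was the same with either length. With 3 libraries against 3 the exact permutation test cannot go below p = 0.1, which both shares reached; over the 8 shares compared the adjusted value was 0.133.

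The kinases that make fructose 2,6-bisphosphate, an activator of phosphofructokinase, were both higher. Pfkfb3 rose from 13.2 CPM ± 0.662 to 16.5 CPM ± 0.584 (mean ± SD of 3 libraries), a log2 fold change of 0.33 (edgeR adjusted p = 0.000180) that fell to 0.10 (adjusted p = 0.248) relative to its neighbours on chromosome 2. Pfkfb4 measured 3.88, 4.95 and 4.00 CPM in the controls and 6.43, 6.42 and 6.15 CPM in ETV4 KO (log2 fold change 0.56 with SE 0.12, adjusted p = 0.00014). Its groups did not overlap, and the call held relative to its neighbours.

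Aldolase splits the hexose into triose phosphates, and its isoenzymes also moved apart. Aldoa, the main form in these cells, measured 694.1, 718.0 and 723.5 CPM in the controls and 902.5, 968.3 and 939.0 CPM in ETV4 KO (log2 fold change 0.40 with SE 0.032, edgeR adjusted p = 3.68e-12). Aldoc, the brain-type form (chromosome 11, 78322968 to 78327781, plus strand), had the largest fall of the 35 genes. It measured 8.19, 8.72 and 9.72 CPM in the controls, from 190, 236 and 221 counts, and 0.978, 1.21 and 0.878 CPM in ETV4 KO, from 28, 30 and 21 counts. The log2 fold change was -3.11 (SE 0.15, adjusted p = 3.70e-17), and -2.70 relative to its neighbours, whose median was -0.42. Since Aldoc made up 1.40% of aldolase mRNA per kilobase in controls and 0.124% in ETV4 KO, the family sum followed Aldoa.

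The triose steps held genes near level and 1 that rose. Gapdh, often used as a reference gene, measured 1360, 1389 and 1370 CPM in the controls and 1367, 1344 and 1342 CPM in ETV4 KO (log2 fold change -0.02 with SE 0.029, edgeR adjusted p = 0.480), and 0.15 relative to its neighbours on chromosome 6. The Gapdh libraries overlapped between groups. Tpi1, triose phosphate isomerase, lies close to Gapdh on chromosome 6 and went from 426.2 to 420.5 CPM, a log2 fold change of -0.02 (adjusted p = 0.595) and 0.16 relative to its neighbours. Pgk1, an ATP-forming kinase, measured 565.2, 571.5 and 578.5 CPM and 753.7, 775.3 and 775.9 CPM. It rose by 0.43 on the log2 scale (SE 0.030, adjusted p = 1.77e-13), with the ETV4 KO libraries far above the controls, and by 0.50 relative to its neighbours on the X chromosome. Gapdh and Pgk1 catalyse consecutive steps.

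In the lower part of the pathway 1 of 3 enzymes rose. Pgam1, phosphoglycerate mutase, went from 253.0 CPM ± 11.4 to 313.0 CPM ± 14.2 (mean ± SD of 3 libraries), a log2 fold change of 0.31 (edgeR adjusted p = 1.33e-08) and 0.18 relative to its neighbours on chromosome 19. Eno1, enolase, was at 1320 and 1346 CPM with a log2 fold change of 0.03 (adjusted p = 0.402), and a separate row of the table, Eno1b, a near-identical copy, was at 371.2 and 359.7 CPM (adjusted p = 0.284). Pkm, pyruvate kinase and the most abundant glycolytic mRNA per kilobase, measured 3701, 3682 and 3706 CPM in the controls and 3466, 3607 and 3582 CPM in ETV4 KO. All ETV4 KO libraries of Pkm lay below the controls, but the difference was small (log2 fold change -0.06, SE 0.029, adjusted p = 0.0786) and turned to 0.09 relative to its neighbours. Gapdh, Tpi1, Eno1, Pgk1 and Ldha have processed copies elsewhere in the mouse genome, and how reads that fit several places were counted is not stated in the sources used here, so that their levels are uncertain to that extent.

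At the end of the route the genes that send pyruvate to lactate and away from mitochondria were higher. Ldha, the lactate-forming dehydrogenase subunit, measured 836.8, 873.4 and 866.3 CPM in the controls and 1129, 1163 and 1158 CPM in ETV4 KO (log2 fold change 0.42 with SE 0.030, edgeR adjusted p = 2.78e-13), and 0.24 relative to its neighbours on chromosome 7. Pdk1, the kinase that shuts pyruvate dehydrogenase, measured 32.5, 33.3 and 34.1 CPM and 63.2, 63.4 and 64.0 CPM, a 1.91-fold rise (log2 fold change 0.93, SE 0.046, adjusted p = 3.04e-17). The Pdk1 libraries differed little within a group and the groups lay far apart. Ldhb, the other dehydrogenase subunit (chromosome 6, 142490249 to 142507957, minus strand), was counted 19, 27 and 41 times in the controls and 7, 3 and 9 times in ETV4 KO, or 1.21 CPM ± 0.525 and 0.247 CPM ± 0.128. It fell by 2.26 on the log2 scale (SE 0.39, adjusted p = 7.20e-06), from a level at which it was already 0.294% of lactate dehydrogenase mRNA per kilobase.

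**Figure D2:**
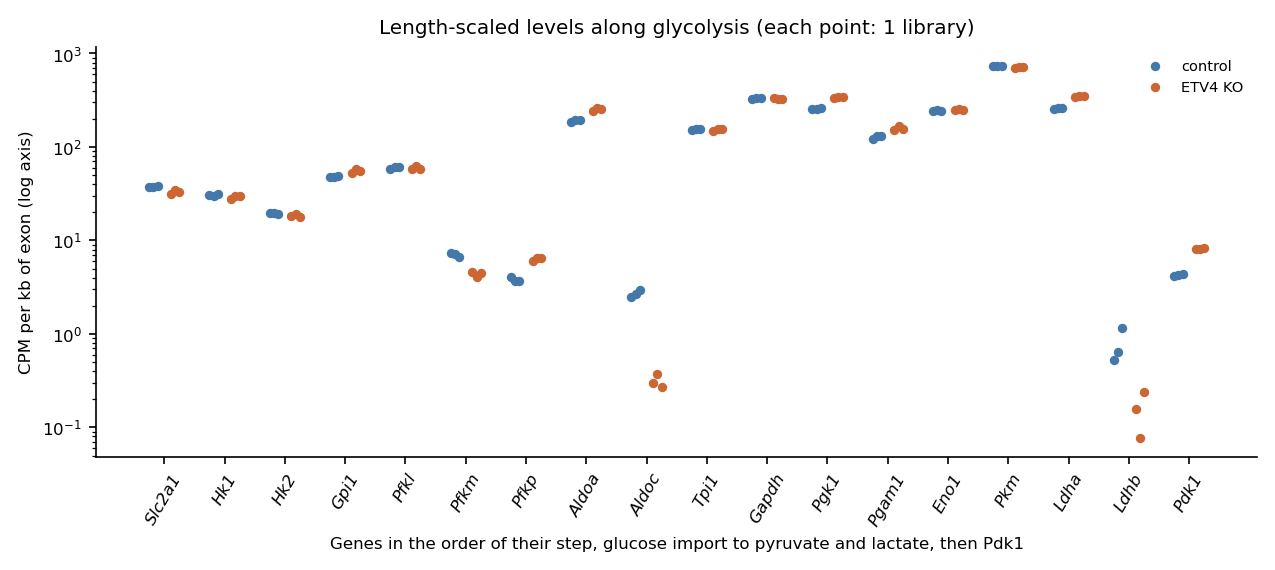
TMM-scaled CPM per kilobase of exon (log axis) of 18 genes in the order of their step, each point 1 library. From Aldoa on, the main isoenzymes lie between 128 CPM per kb (Pgam1, controls) and 739 CPM per kb (Pkm, controls), above Slc2a1, the hexokinases and Pfkl, and Aldoc and Ldhb are lower in ETV4 KO.

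Levels scaled by the joined length of all annotated exons of a gene gave the following order, which depends on that length. In the controls Pkm was highest at 739.1 CPM per kb, followed by Gapdh at 332.2, Ldha at 259.5, Pgk1 at 254.8, Eno1 at 245.4, Aldoa at 191.9, Tpi1 at 154.8 and Pgam1 at 127.6. The upper steps were lower, with Pfkl at 59.6, Gpi1 at 47.9, Slc2a1 at 37.7, Hk1 at 30.3 and Hk2 at 19.6. In ETV4 KO, Ldha (347.4) and Pgk1 (342.4) stood above Gapdh (326.8), which in the controls had stood above both. That change of order rests on the exon lengths used, 4133 bases for Gapdh, 3310 for Ldha and 2244 for Pgk1. In CPM without length, Gapdh (1351) stood above Ldha (1150) and Pgk1 (768.3) in ETV4 KO as well.

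**Figure D3:**
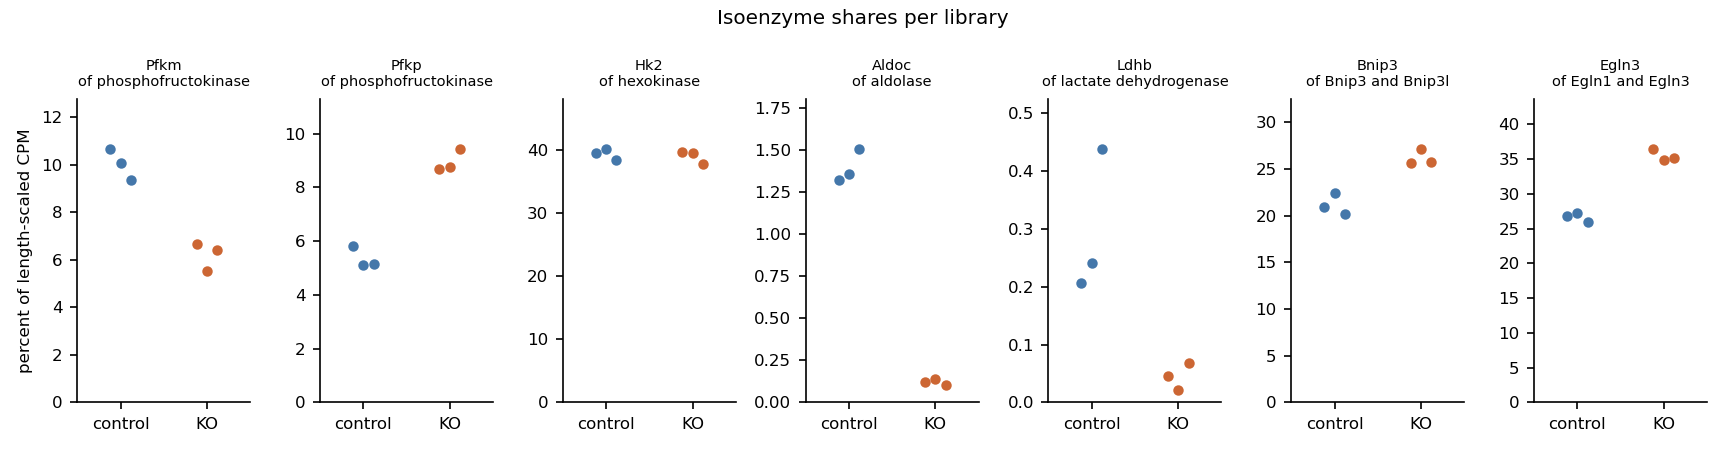
Share (percent) of 7 isoenzymes or paralogs in the length-scaled CPM of their family, each point 1 library. The groups do not overlap for Pfkm, Pfkp, Aldoc, Ldhb, Bnip3 and Egln3, and overlap for Hk2.

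Outside the route to lactate, the mitophagy receptors and several classical HIF targets rose. Bnip3, a mitophagy receptor whose gene is strongly induced by low oxygen, measured 15.2, 16.0 and 14.3 CPM in the controls and 24.2, 24.8 and 24.1 CPM in ETV4 KO (log2 fold change 0.68 with SE 0.064, edgeR adjusted p = 9.17e-11). Its paralog Bnip3l rose from 96.2 CPM ± 1.63 to 117.4 CPM ± 3.03 (mean ± SD of 3 libraries), a log2 fold change of 0.29 (adjusted p = 3.81e-08) and 0.13 relative to its neighbours on chromosome 14. Per kilobase the share of Bnip3 among both went from 21.2% ± 1.12 to 26.1% ± 0.818 (exact permutation p = 0.1). Ndrg1, a stress-induced gene of growth arrest and differentiation (chromosome 15, 66929318 to 66969640, minus strand), had the smallest adjusted p of the members. It measured 204.9, 205.0 and 208.2 CPM in the controls and 403.3, 388.0 and 388.8 CPM in ETV4 KO, a 1.91-fold rise (log2 fold change 0.93, SE 0.032, adjusted p = 4.50e-21). Relative to its neighbours, of which its 10 Mb held 10, the Ndrg1 difference was 0.63.

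Adm encodes adrenomedullin, a vasodilator peptide induced by hypoxia, and was low in these cells. It measured 1.77, 1.145 and 1.496 CPM in the controls and 2.41, 3.11 and 2.72 CPM in ETV4 KO (log2 fold change 0.91 with SE 0.20, edgeR adjusted p = 0.000148), which rests on 31 to 77 counts per library. Ero1l, an oxidase of the endoplasmic reticulum, went from 77.6 to 97.8 CPM (log2 fold change 0.33, adjusted p = 2.82e-08; 0.15 relative to its neighbours). Mxi1, an antagonist of MYC, went from 44.7 to 52.2 CPM (0.22, adjusted p = 6.77e-05), and relative to its neighbours on chromosome 19 it had 0.08 (adjusted p = 0.105).

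Other HIF targets fell, among them genes that are widely used as markers of low oxygen. Car9, carbonic anhydrase 9 at the cell surface, measured 23.3, 25.9 and 23.8 CPM in the controls and 12.2, 12.2 and 13.1 CPM in ETV4 KO (log2 fold change -0.97 with SE 0.068, edgeR adjusted p = 1.52e-13). Car12, a related surface enzyme (chromosome 9, 66713686 to 66766845, plus strand), measured 14.3, 15.4 and 15.5 CPM and 4.72, 3.92 and 4.60 CPM (log2 fold change -1.77 with SE 0.095, adjusted p = 2.95e-16). Both enzymes help acid-producing cells to control pH, and for both the groups lay far apart. Ddit4 (REDD1), an inhibitor of mTORC1 induced by hypoxia, glucocorticoids and other stresses, measured 305.2, 327.3 and 322.9 CPM and 114.7, 141.0 and 117.9 CPM. It fell by 1.36 on the log2 scale (SE 0.048, adjusted p = 1.20e-20), the largest fall among members above 100 CPM in controls.

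Smaller or less certain falls were seen in the rest. Kdm3a, a histone demethylase, went from 79.8 to 69.1 CPM (log2 fold change -0.21, edgeR adjusted p = 7.13e-05), and had -0.11 relative to its neighbours on chromosome 6. Angptl4, a secreted inhibitor of lipoprotein lipase, was counted 19, 21 and 22 times in the controls and 6, 6 and 18 times in ETV4 KO (log2 fold change -1.12 with SE 0.37, adjusted p = 0.00895). ETV4 KO replicate 3 stood near the controls, and the Angptl4 call depended on single libraries: it had -0.78 (adjusted p = 0.0840) without ETV4 KO replicate 1 and -1.89 (adjusted p = 0.000323) without ETV4 KO replicate 3. Ankrd37, a small ankyrin-repeat gene of the HIF response, was at 3.76 and 3.19 CPM and did not pass (-0.24, adjusted p = 0.130).

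**Figure D4:**
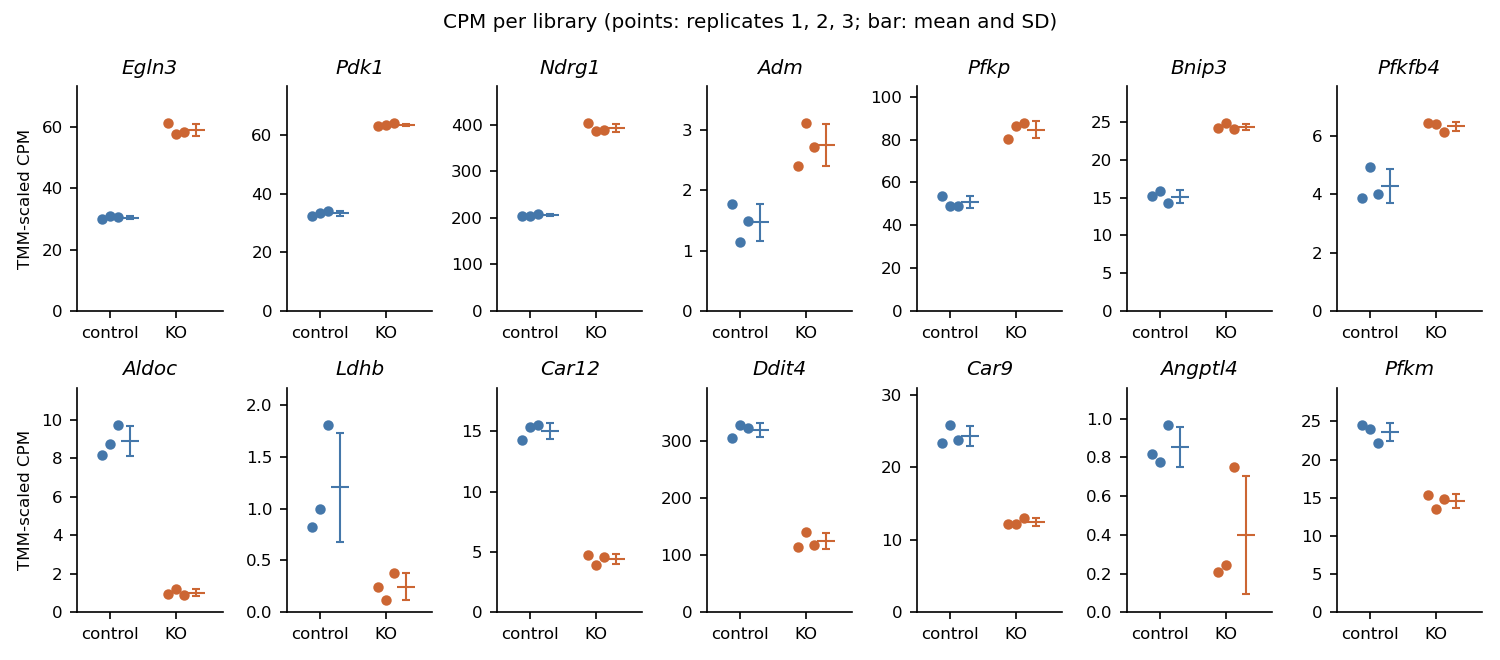
TMM-scaled CPM per library of the 14 members with the largest absolute log2 fold changes, with the mean and SD (bar) of each group of 3 libraries; axes start at 0. The upper row holds members that rose (Egln3 to Pfkfb4) and the lower row members that fell, and the groups come closest for Angptl4, where 1 ETV4 KO library at 0.753 CPM lies just under the lowest control at 0.775 CPM.

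The level of neighbouring genes moved with many of these calls. Expressed genes of whole chromosomes differed between the groups, with medians of -0.38 on chromosome 11, -0.16 on chromosome 6, -0.15 on chromosome 4 and 0.37 on chromosome 17. Of the 18 members that rose, 16 lay in 10 Mb stretches whose other expressed genes had a median above 0, and of the 10 that fell, 8 lay in stretches with a median below 0. All 7 members that did not pass lay in stretches with a median between -0.20 and -0.01. The same shares over all genes tested are not given here, so these counts do not set the members apart from other genes. With that median entered as an offset, 64.7% of all genes tested passed, 30.6% higher and 34.2% lower. Of the members, 21 were higher and 8 lower. Among the 14 glycolytic enzymes 10 were higher (Hk2, Pfkl, Tpi1, Gapdh, Eno1 and Pkm joined, Gpi1 left) and 2 lower, with a median of 0.16. The direction and call of Egln3, Pdk1, Ndrg1, Pfkp, Pgk1, Aldoa, Ldha, Bnip3, Aldoc, Ldhb, Pfkm, Car9, Car12 and Ddit4 held on both scales. The part of these regional differences in the members' values was not tested.

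Further lists placed these genes in their pathways. Over all genes tested, 35% were higher and 36% lower. Of 14 tested genes of the HIF machinery and its cofactors 6 rose and 3 fell, with Cited2, a HIF-induced competitor for the coactivator p300, at 0.49 (adjusted p = 3.17e-14), Egln2 at 0.37 and Limd1 at 0.33, and Arnt, the partner of the alpha subunit, at -0.45 (edgeR adjusted p = 2.51e-11). With the neighbours' median as offset, Cited2 had 0.75, Egln2 0.26, Limd1 0.20 and Arnt -0.24. Epas1, which encodes HIF-2 alpha, had 0 counts in all 6 libraries. Among 28 tested further HIF targets, 15 rose and 9 fell with a median of 0.16. Hmox1, heme oxygenase, went from 17.8 to 82.0 CPM (log2 fold change 2.20) and Vegfa, the angiogenic growth factor, from 33.1 to 66.8 CPM (1.02), while Cp, ceruloplasmin, went from 28.4 to 2.90 CPM (-3.28). All 3 passed the edgeR test, and several of these genes also answer to other stimuli. On the offset scale Hmox1 had 2.33, Vegfa 0.70 and Cp -2.935. As among the members, targets of HIF stood on both sides.

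Around glycolysis the lists were mixed, and every gene named from them here passed the edgeR test. Their counts stand beside 35% higher and 36% lower over all genes tested. Pyruvate entry and the TCA cycle had 16 of 28 tested genes higher and 6 lower with a median of 0.14, including Idh3b at 0.42 and both pyruvate dehydrogenase phosphatases in opposite directions, Pdp1 at 0.84 (from 12.7 to 22.8 CPM) and Pdp2 at -0.88 (from 35.6 to 19.4 CPM). In the pentose phosphate pathway 4 of 8 fell, among them Rpia (-0.54), H6pd (-0.33) and Pgls (-0.31), and Taldo1 rose (0.14). Relative to its neighbours Taldo1 had -0.009 (edgeR adjusted p = 0.855). Of 8 other transporters of glucose and monocarboxylates 2 fell and 6 did not pass, the fallen ones being Slc2a6 at -0.81 and Slc2a8 at -0.29. Among 10 tested further glycolytic isoenzymes 3 rose and 4 fell, with Eno3, muscle enolase, at 0.86 (from 77.8 to 140.8 CPM), Bpgm at -0.72, Ldhd at -0.62 and Pgam2 at -0.96. With the neighbours' median as offset, the genes named in this paragraph other than Taldo1 kept their direction and passed. Their sizes changed, as for Idh3b, which had 0.15, and Eno3, which had 1.27.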

How the data were processed

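Poly(A) RNA of 6 samples was counted by the authors, who deposited raw counts in 1 table with a row per gene symbol; the unit was taken from the values. Per the submitters' processing notes, FastQC 0.11.9, STAR 2.7.9a, R 4.1.1, featureCounts and the builds hg38 and mm10 were used, with no role or order. Annotation, strand setting and the handling of multi-mapping reads are not stated in the sources used. A stranded mRNA kit is named in the labels' protocols.

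Groups came from sample titles, and columns were matched by library name. Counts were analysed with edgeR 4.0.16 in R 4.3.3: filterByExpr (minimum count 10, minimum total 15), TMM scaling, glmQLFit and glmQLFTest on the group, and Benjamini-Hochberg adjustment over 12076 genes, called at an adjusted p under 0.05. SEs were taken from the log2 fold change and the root of its F statistic. A fold of 1.5 was tested with glmTreat. Positions and exon lengths came from GENCODE M21 (GRCm38, the build mm10). For the neighbour alternative, the median of the other genes with log2 CPM above 3 in the same 10 Mb was entered as an offset; its p-values treat that median as known. Shares of isoenzymes used CPM per exon length and a two-sided exact permutation test.

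The alternatives were RLE, upper-quartile and library-size scaling, DESeq2 1.42.0, limma 3.58.1 (voom), other low-count filters, a replicate block, an adjusted p under 0.01, the neighbour offset, and each library left out. The alternatives for shares and for the 1.5-fold count were chosen after seeing the data. Members, lists and tests were chosen with earlier results of these data known. Per-library values are given for the 14 called members with the largest changes and for Hif1a, Gapdh, Pgk1, Ldha and Pkm; from each further list up to 3 called genes of the majority direction and 1 of the minority are named, except a few not reported here. Slc2a1, Aldoa, Egln1, Slc16a1, Bsg and Epas1 were given more room after their values were seen. On simulated counts for the 12076 genes, edgeR recovered 68% of genes changed 1.2-fold, 86% of those changed 1.5-fold, 96% of those changed 2-fold and 100% of those changed 4-fold. It called 15 of 11876 unchanged genes. The simulation changed 50 genes at each size, in both directions, with a spread set by expression level alone. In the data 71.1% of genes passed, so these rates need not hold there.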

Additional observations from a re-analysis of the deposited data

How the results depend on the processing

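Over all alternatives 18 to 21 members were higher and 8 to 14 lower. Among the 14 glycolytic enzymes, the count called higher was 10 in place of 5 with the neighbour offset, and the count called lower was 5 with upper-quartile factors, 7 with library size alone and 5 with the replicate block, in place of 3, and 2 to 3 when single libraries were left out. The members past 1.5-fold numbered 2 higher in place of 4, and 7 lower in place of 5, with the neighbour offset. The sign turned with the neighbour offset for Hk2 (0.19), Tpi1 (0.16), Gapdh (0.15) and Pkm (0.0932). Pfkl had -0.0320 with upper-quartile factors, -0.0460 with library size alone and -0.00164 where a CPM of 1 in 3 libraries was required, and between -0.0282 and 0.0255 with single libraries left out. With upper-quartile factors Eno1 had -0.0094, and with library size alone -0.0235, and Tpi1 ranged from -0.0372 to 0.0035 with single libraries left out. The difference in the share of Hk2 was -0.381 percentage points and ranged from -0.808 to 0.246 with single libraries left out. The cause of these changes was not tested. With the longest coding transcript as length, the share differences were -2.63 points for Pfkm (in place of -3.83), 5.79 for Pfkp (in place of 3.59) and -0.627 for Aldoc (in place of -1.27). Whether the replicate numbers pair the samples cannot be told from the small correlations between their deviations. Same-numbered samples correlated at 0.071, 0.0705 and 0.0186, the highest value for each control, while ETV4 KO replicate 3 correlated best with control replicate 1 (0.0199). With the replicate block, 18 members were higher and 12 lower, the added calls being Hk1 (adjusted p = 0.0453) and Pkm (0.0167). Depth limits the low genes: Ldhb and Angptl4 were not tested under the CPM filter, and Slc2a3 and Slc16a3 were not tested in the main analysis.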

Other observations

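Of 13 genes often used as references for expression, 11 passed the edgeR test, 9 higher and 2 lower, beside 71.1% of all genes tested, with Gusb at a log2 fold change of 0.55 (from 118.2 to 173.2 CPM), Pgk1 at 0.43, Actb at 0.30 (from 3837 to 4739 CPM) and Ppia at -0.20 (from 1641 to 1425 CPM). With the neighbour offset 4 were higher and 5 lower, beside 64.7% of all genes called in either direction; Actb had 0.09 and Ppia had 0.04 (adjusted p = 0.296), so the sign of Ppia turned.

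The serine branch that leaves glycolysis had 3 of 6 tested genes higher and 2 lower, beside 35% and 36% of all genes tested. Phgdh, its entry enzyme, went from 284.4 to 339.4 CPM (0.25), Psat1 had 0.18 and Psph 0.12, and Mthfd2, a mitochondrial folate enzyme, had -0.36 (from 64.3 to 50.1 CPM). With the neighbour offset Psat1 had 0.00 and Psph -0.13. Among gluconeogenic genes, G6pc3 fell by 0.64 on the log2 scale, Pcx had 0.40 and Pck2 0.24, and all passed the edgeR test. Relative to their neighbours G6pc3 had -0.18, Pcx 0.29 and Pck2 0.10 (edgeR adjusted p = 0.0913), so Pck2 no longer passed.

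Of 6 tested genes among other carbonic anhydrases and pH transporters, 4 fell and 2 rose, beside 36% and 35% of all genes tested. Car13, a cytosolic enzyme, went from 76.9 CPM ± 3.01 to 30.6 CPM ± 1.40 (mean ± SD of 3 libraries, log2 fold change -1.33). Car5b, a mitochondrial enzyme, went the other way, from 9.25 CPM ± 0.184 to 21.5 CPM ± 0.911 (1.22).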
